A study of Mus musculus with 20 samples.

Results

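The Fthl17 genes are a mouse family of ferritin heavy-chain-like genes on the X chromosome, and all 6 that carry the name, Fthl17a to Fthl17f, were taken by symbol together with the somatic ferritin genes Fth1 and Ftl1. These 8 genes were looked up among the 22729, 20159 and 20142 genes of the raw count tables for embryos, mESCs and EBs, and among the 47069 and 55487 genes of the RPKM tables for embryos and lines. RNA-seq was done on 20 libraries in all. In embryos, 6 wild-type and 6 Zmym2-/- single whole embryos at E8.5, C57BL/6, were compared, and replicates 1 to 3 of each genotype were male and replicates 4 to 6 female. In culture, 2 non-targeting sgRNA control lines and 2 Zmym2-/- lines of V6.5, an embryonic stem cell line of C57BL/6x129/SvJae background, were compared both as mESCs in serum and LIF at day 0 and as embryoid bodies (EBs, floating aggregates that differentiate) at day 3. The Zmym2- allele of the mice is a CRISPR frameshift early in the coding sequence, so its transcript can still be counted, and the lines are clones.

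Ferritin is a hollow protein shell that stores iron. Fth1 encodes its heavy chain, which oxidises iron as it enters, and Ftl1 its light chain, which helps the iron core to form, and most cells use both. The Fthl17 genes resemble Fth1 and are known for expression in the male germline, and the human gene FTHL17 is a cancer-testis antigen. ZMYM2 is a zinc finger protein of chromatin repressor complexes. No gonad was sequenced, so the germline part of the family's name could not be checked in these samples.

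In the GRCm38 annotation (GENCODE vM21) Fthl17b (chrX:8962134-8962975), Fthl17c (chrX:8975710-8976559) and Fthl17d (chrX:8985900-8986755) lie on the minus strand. Fthl17e (chrX:9033493-9034333) and Fthl17f (chrX:9063015-9063861) lie beside them on the plus strand. These 5 genes span 101.7 kb, each is a single exon with 528 coding bases, and the pseudogenes Fthl17-ps1, Fthl17-ps2 and Fthl17-ps3 are annotated next to them. Fthl17a (chrX:85249679-85270288, plus strand) stands 76.2 Mb away, has 2 exons and holds its 546 coding bases in the second (chrX:85269613-85270158). Fth1 is on chromosome 19 (chr19:9980598-9985098, plus strand) and Ftl1 on chromosome 7 (chr7:45457944-45459884, minus strand).

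The copies of the cluster can be told apart only in part by reads of 100 nt, and the stretch of coding sequence where they differ most is shown for that reason (coding bases 39 to 98, GRCm38, strand of the gene, capitals mark bases that differ from Fthl17f):
Fthl17f: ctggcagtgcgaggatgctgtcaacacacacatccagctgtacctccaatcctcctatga
Fthl17b: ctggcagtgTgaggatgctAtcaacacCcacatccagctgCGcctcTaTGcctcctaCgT
Fthl17c: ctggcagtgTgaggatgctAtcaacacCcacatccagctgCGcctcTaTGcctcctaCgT
Fthl17d: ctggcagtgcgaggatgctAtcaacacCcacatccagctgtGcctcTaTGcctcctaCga
Fthl17e: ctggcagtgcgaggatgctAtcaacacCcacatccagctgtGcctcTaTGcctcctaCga
Even in this stretch Fthl17b was identical to Fthl17c and Fthl17d to Fthl17e, while these pairs differed from Fthl17f at 10 and 7 of 60 bases. Over all 528 coding bases Fthl17f differed from the other copies of the cluster at 19 to 22 bases, Fthl17b from Fthl17c at 3 and Fthl17d from Fthl17e at 1. Fthl17a was no near copy of any of them, with a coding identity of 61.3% to 62.6%.

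Every window of 100 bases along each transcript was searched in all annotated transcripts. All 736 windows of Fthl17a were found in no other gene, as were 544 of 748 (72.7%) in Fthl17f and 99.0% in Fth1. In Fthl17b only 80 of 743 (10.8%) were its own, and Fthl17c (34.5%), Fthl17d (15.2%) and Fthl17e (35.2%) were little better. Ftl1 kept 186 of 869 (21.4%), since it shared 515 windows with the pseudogene Ftl1-ps1. Counts of Fthl17a and Fth1 therefore stand for those genes, those of Fthl17f largely so, and those of Fthl17b to Fthl17e and of Ftl1 cannot be assigned to 1 copy with certainty.

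**Figure D1:**
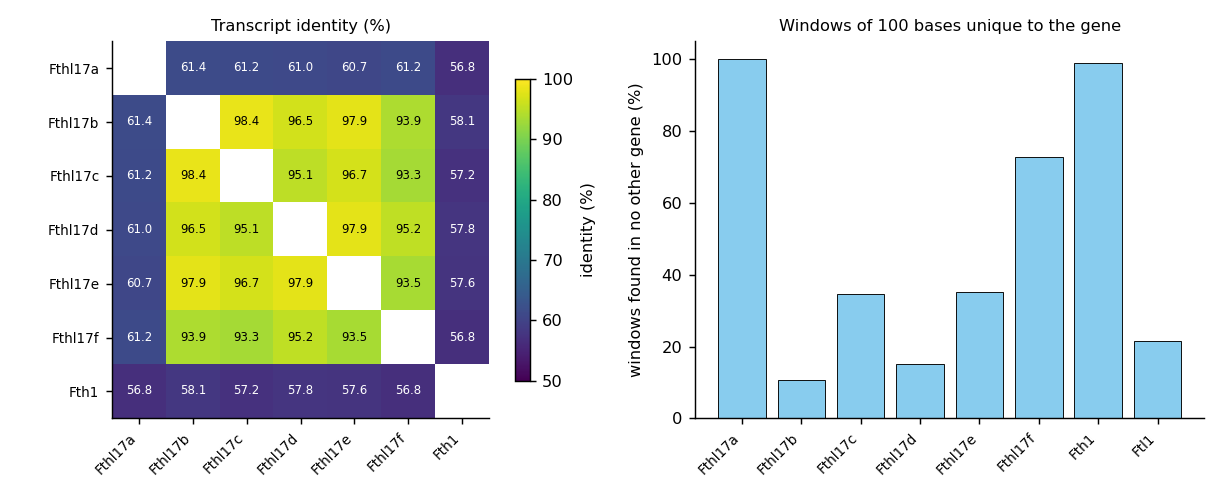
Left, identity between transcripts in percent for each pair of Fthl17 genes and Fth1. Right, share of windows of 100 bases found in no other annotated gene, in percent. Fthl17b to Fthl17f are 93.3% to 98.4% identical to each other, Fthl17a is 60.7% to 61.4% identical to them, and Fthl17a, Fth1 and Fthl17f keep most windows to themselves.

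The sequence upstream of the members is shown because Fthl17f was the member called in embryos. Of the other copies of the cluster only Fthl17b had listed counts to test. Few windows of 100 bases are unique to these copies (10.8% to 35.2%, against 72.7% in Fthl17f), so they were less open to a call. Each line holds 136 bases of GRCm38.p6 (RefSeq) on the strand of the gene, aligned on the TATA box of the cluster members and ending at the annotated start for Fthl17a, with TATAAA and CCAAT (here as its complement ATTGG) in capitals. The positions are chrX:9062879-9063014 for Fthl17f, chrX:8962991-8963126 for Fthl17b, chrX:8986756-8986891 for Fthl17d and chrX:85249541-85249676 for Fthl17a:
Fthl17f: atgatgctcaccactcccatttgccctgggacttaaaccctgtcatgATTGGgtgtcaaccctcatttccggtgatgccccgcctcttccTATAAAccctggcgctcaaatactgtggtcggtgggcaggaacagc
Fthl17b: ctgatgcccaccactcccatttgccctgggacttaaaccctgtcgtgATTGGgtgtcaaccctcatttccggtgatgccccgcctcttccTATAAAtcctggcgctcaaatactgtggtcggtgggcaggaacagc
Fthl17d: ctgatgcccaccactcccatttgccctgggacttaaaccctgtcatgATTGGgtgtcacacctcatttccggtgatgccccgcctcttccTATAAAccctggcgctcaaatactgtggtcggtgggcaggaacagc
Fthl17a: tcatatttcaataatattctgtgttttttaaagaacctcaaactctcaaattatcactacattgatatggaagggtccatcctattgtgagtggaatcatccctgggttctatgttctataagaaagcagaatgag
Fthl17c was identical to Fthl17b here and Fthl17e to Fthl17d, and each pair of lines of the cluster differed at 4 of 136 bases (97.1% identity). Fthl17a shared 48.4% to 50.3% with them. In the windows of 300 bases around annotated starts, searched on both strands, CCAAT was present in 5 of the 6 members and in 37.4% of all 32851 windows, and TATAAA in 5 of the 6 and in 13.6%. The letters CACGTG (7.2% of all windows) and TTCCCGC (4.6%) were in none of the 6. The window of Fthl17f held 11 CG dinucleotides, those of Fthl17b to Fthl17e 8 or 9 and that of Fthl17a 1, where the median of all windows was 7. These windows are placed on RefSeq starts, which lie at different distances from the TATA box, so they cover different parts of the copies. In the aligned 136 bases Fthl17f, Fthl17d and Fthl17e held 4 CG dinucleotides each, and Fthl17b and Fthl17c 5 each.

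Libraries held 32016880 to 64057608 counts, so 1 count was worth 0.0156 to 0.0312 CPM before TMM scaling. The CPM of genes given here are counts as a rate over the library total, scaled by TMM. Each count table lists only genes with at least 10 counts over its libraries, and 5 of the 8 members are listed in all 3 tables, Fthl17a, Fthl17b, Fthl17f, Fth1 and Ftl1. Fthl17c, Fthl17d and Fthl17e have values only in the RPKM tables, where 7 of their 60 values were above 0 and the highest, 0.069 RPKM, stood for 1.99 reads. Zmym2 itself, the targeted gene, differed by -1.3 (SE 0.10) on the log2 scale in Zmym2-/- mESCs (edgeR adjusted p = 3.07e-06) and by -1.55 (SE 0.07) in EBs (adjusted p = 9.70e-08). In embryos it was at 50.3 to 125 CPM in wild-type and 25.4 to 67.1 in Zmym2-/-, which overlap (adjusted p = 0.226).

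In embryos the question was which members differ without Zmym2. Fthl17f, a heavy-chain-like copy at the edge of the cluster, had 0, 1, 0, 0, 0 and 0 counts in wild-type embryos 1 to 6 and 8, 15, 16, 23, 12 and 17 in Zmym2-/- embryos 1 to 6. In CPM the Zmym2-/- embryos were at 0.115, 0.258, 0.255, 0.562, 0.297 and 0.257 (mean 0.291 ± 0.147 SD, n = 6), and the highest wild-type embryo was at 0.0275. Every Zmym2-/- embryo, of both sexes, was above every wild-type embryo, as was the case for 1.03% of all genes tested. The summed counts, 91 against 1, gave a ratio of 71.3 after scaling (95% counting interval 12.5 to 2847, counting error only).

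Of the 3 Fthl17 genes tested in embryos Fthl17f alone was called, against 0.524% of 22729 genes called in either direction and 0.51% called higher. Its fitted log2 difference was 5.51 (SE 0.75, edgeR quasi-likelihood test, adjusted p = 0.00263), a size that rests on the prior count because the wild-type embryos hold 1 count between them. On the log2(RPKM + 0.1) scale it was 2.04 (limma adjusted p = 0.000524, 0.773% of genes called), with means of 0.351 RPKM in Zmym2-/- and 0.00483 in wild-type embryos. These RPKM are the same counts rescaled by length and library total, so that test is not a second measurement. Fthl17f entered the table through the Zmym2-/- embryos alone, and it is among the genes the study picked as higher on these same embryos, so neither its listing nor that choice is independent evidence of the direction.

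**Figure D2:**
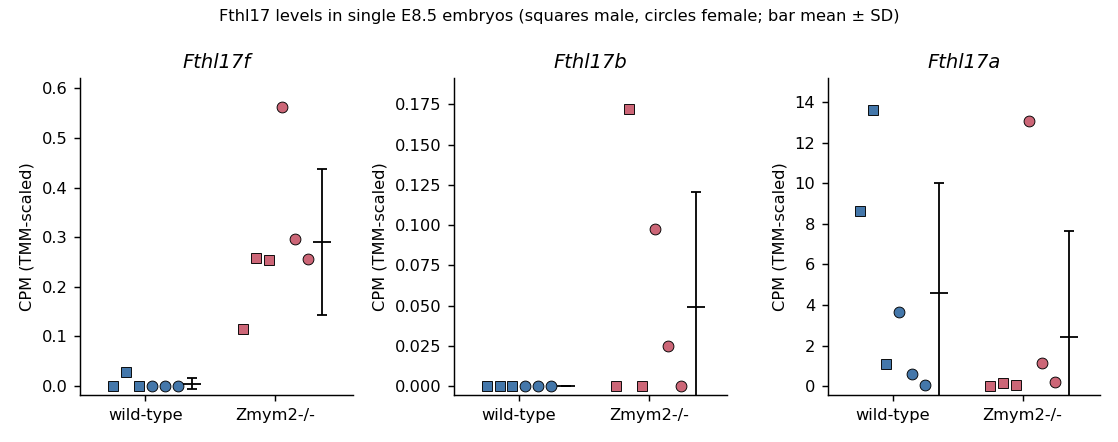
CPM of Fthl17f, Fthl17b and Fthl17a (vertical axes, different scales) in each E8.5 embryo, squares for males and circles for females, with the mean and SD of each genotype beside the points and error bars cut at the lower axis. Fthl17f is at 0.115 to 0.562 CPM in the 6 Zmym2-/- embryos and at 0 to 0.0275 in the wild-type embryos, Fthl17b is above 0 in 3 Zmym2-/- embryos, and Fthl17a overlaps between genotypes.

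The number in an embryo's library name was read here as a litter, which the labels do not state. Where the number held both genotypes, Fthl17f had 23 counts in Zmym2-/- embryo 4 and 0 in each of wild-type embryos 1 and 4 (H2121), 12 in Zmym2-/- embryo 5 and 1 in wild-type embryo 2 (H2408), and 17 in Zmym2-/- embryo 6 and 0 in wild-type embryo 3 (J7444). The Zmym2-/- embryo was thus higher within each of the 3. The fit over these 7 embryos alone gave a log2 difference of 5.40 with an adjusted p of 0.239, and the fits within males (4.33, adjusted p = 0.0664) and within females (7.16, adjusted p = 0.147) also missed the threshold. The difference was called without any 1 embryo (adjusted p 0.00273 to 0.0113).

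Markers of other cells were set beside Fthl17f because whole embryos can carry different shares of cells, and in bulk RNA fewer cells of a type and less RNA per cell cannot be told apart. The summed CPM of 8 primordial germ cell markers, all listed, was 240, 279, 84.8, 149, 108 and 71.1 in wild-type embryos 1 to 6 and 100, 83.2, 81.2, 268, 120 and 98.2 in Zmym2-/- embryos. Zmym2-/- embryo 4 was the highest of its genotype in both Fthl17f and this sum. Wild-type embryos 1 and 2 had sums of 240 and 279 CPM with 0 and 1 counts of Fthl17f. The embryos highest in this sum, wild-type 1, 2 and 4 and Zmym2-/- 4, were also those highest in trophoblast markers (599, 988, 249 and 541 CPM). The sum may thus not stand for germ cells alone, and the part of germ cells in the level of Fthl17f was not tested. Of the 8 markers 0 were called by edgeR. One of them came near the threshold, Dppa3, a gene of germ cells and pluripotent cells that was picked out after its values were seen. It was at 0.0485 to 1.13 CPM in wild-type and 1.75 to 4.31 in Zmym2-/- embryos, which do not overlap, as held in this direction for 1.03% of all genes. It differed by 2.44 (edgeR adjusted p = 0.0536), and on RPKM by 2.59, where it was called (limma adjusted p = 0.00926, 0.773% of genes called). Its part in the level of Fthl17f was not tested. The 6 markers of yolk sac endoderm summed to 5504 and 6100 CPM in Zmym2-/- embryos 5 and 6 and to 1280 to 3304 in the other 10. Without those 2 embryos Fthl17f differed by 5.53 (edgeR adjusted p = 0.0164). Zmym2-/- embryo 4, at 3304 CPM, stayed in that fit and was above every wild-type embryo (at most 3005). The part of yolk sac endoderm in the level of Fthl17f was not tested.

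Fthl17b, whose counts can come from its near copies, was at 0 in all 6 wild-type embryos and had 0, 10, 0, 4, 1 and 0 counts in Zmym2-/- embryos 1 to 6. The groups overlap at 0, where 3 of the 6 Zmym2-/- embryos also lie. Against a floor of 3 counts over the wild-type group the Zmym2-/- embryos were at least 3.92-fold higher, but 10 of the 15 counts come from Zmym2-/- embryo 2, and without it the bound was 1.58. Fthl17b entered the table through Zmym2-/- embryos alone, and the test did not call it (adjusted p = 0.390). Of the unlisted copies Fthl17d had 1 value above 0 in embryos, 0.028 RPKM in Zmym2-/- embryo 4, and Fthl17c and Fthl17e had none.

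Fthl17a, the distant copy, had the most counts of the Fthl17 genes in every wild-type embryo, while in Zmym2-/- embryos 1, 2, 3 and 6 Fthl17f had more. It was at 8.61, 13.6, 1.09, 3.63, 0.581 and 0.0310 CPM in wild-type embryos 1 to 6 and at 0.0287, 0.138, 0.0796, 13.1, 1.11 and 0.226 in Zmym2-/- embryos 1 to 6. The genotypes overlap over their whole range, and the log2 difference of -0.92 (SE 1.36) was not called (adjusted p = 0.820). Zmym2-/- embryo 4 decides its size, since without it the difference was -3.91 (adjusted p = 0.231). Within males Fthl17a was lower in Zmym2-/- by 6.52 on the log2 scale (adjusted p = 0.0220, edgeR on 6 embryos), but all 3 male Zmym2-/- embryos share the name number J7484, and within females the difference was 1.75 in the other direction.

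The embryos with most Fthl17a were those with most trophoblast marker RNA. The summed CPM of 13 trophoblast markers, a list added after values had been seen, of which 12 are listed (Ctsq is not) and 8 to 12 were above 0 in each embryo, was 599, 988, 92.9, 249, 42.3 and 8.46 in wild-type embryos 1 to 6 and 12, 18.7, 14.5, 541, 82.2 and 49.1 in Zmym2-/- embryos. The 4 embryos highest in Fthl17a, wild-type 1, 2 and 4 and Zmym2-/- 4, were the 4 highest in this sum, and wild-type 6 and Zmym2-/- 1 were the 2 lowest in both. Without those 4 highest embryos Fthl17a differed by -0.90 (adjusted p = 1.00) and Fthl17f by 6.73 (adjusted p = 0.0406). The part of trophoblast tissue in the levels of Fthl17a and Fthl17f was not tested further.

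**Figure D3:**
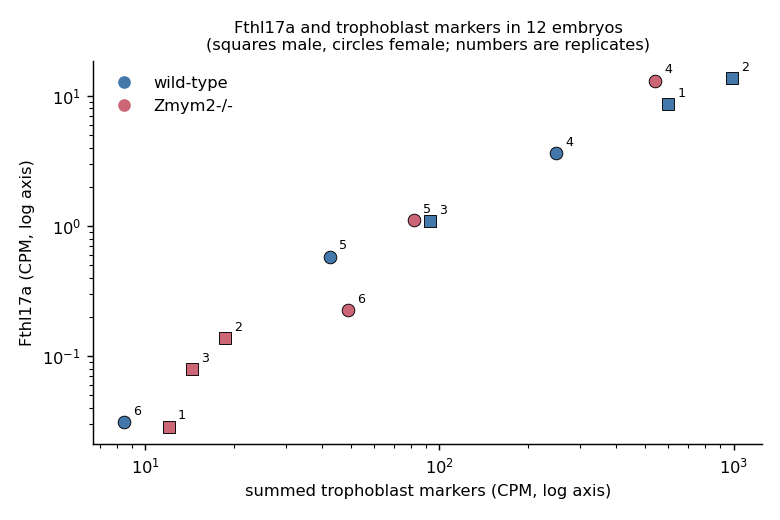
CPM of Fthl17a against the summed CPM of the trophoblast markers in the 12 embryos, both on log axes, with replicate numbers beside the points, squares for males and circles for females. Both genotypes lie along 1 band from 0.0287 CPM of Fthl17a in Zmym2-/- embryo 1 to 13.6 in wild-type embryo 2.

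The genes most like the family over the 12 embryos were sought by Pearson correlation of log2 CPM with the summed counts of the family, among 18751 genes. The sum is nearly Fthl17a alone (r = 0.975), and Fthl17a and Fthl17f had r = -0.14 over the 12 embryos, a value that mixes the genotypes. Within the 6 Zmym2-/- embryos their levels ran in nearly the same order (Spearman's rho 0.943, Pearson's r 0.907, as a description), with embryo 4 highest and embryo 1 lowest in both. Over the 5 without embryo 4 rho was 0.9 and r 0.776. The order rests in part on Fthl17f levels that are nearly equal, 0.258, 0.255 and 0.257 CPM in embryos 2, 3 and 6. The 10 genes with the highest r were Was, Hand1, Irs3, Fos, Arhgef6, Plet1, Plac1, Fam83f, Rhox1 and Ldoc1 (r 0.965 to 0.975). Plac1 is on the trophoblast list, and Hand1 is a transcription factor needed by trophoblast giant cells. The genes most like Fthl17f, asked for after its values had been seen, were 4933416I08Rik, Rhox13, A230004M16Rik, C630028M04Rik, Cyct, Trp53inp1, Rbm44, Pla2g1b, Reg2 and Lipo2 (r 0.939 to 0.974). Rhox13 and Cyct, the testis cytochrome c, are known from germ cells. All these points share the 12 libraries, and genes that follow Fthl17f follow the genotype.

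In wild-type embryos Fthl17a made up 99.9% of 1035 family counts. In Zmym2-/- embryos Fthl17a made up 85.2% of 715, Fthl17f 12.7% and Fthl17b 2.10%. Zmym2-/- embryo 4 decides these shares, since without it Fthl17a made up 48.7% of 154 counts, Fthl17f 44.2% and Fthl17b 7.14%. The lines differed in make-up from the embryos, with Fthl17f at 74.9% of 179 family counts in control mESCs and 57.5% of 106 in control EBs. Annotated transcripts of the 3 genes run from 835 to 847 bases, so these shares are close to shares per length, apart from reads lost to near copies.

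In the lines the question was whether the same members respond at 2 stages of culture. Fthl17f, called in embryos, was present in every library of the lines at overlapping levels in both genotypes. In mESCs it was at 1.87 and 1.24 CPM in controls and at 1.63 and 1.58 in Zmym2-/- (89, 45, 56 and 51 counts), with a log2 difference of 0.03 (SE 0.32, edgeR adjusted p = 0.957). In EBs it was at 1.15 and 0.626 CPM in controls and at 1.14 and 1.01 in Zmym2-/-, with a log2 difference of 0.29 (SE 0.37, adjusted p = 0.733). The groups overlap at both stages, and a p that misses the threshold does not show equal levels.

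Set side by side, mean Fthl17f was 0.00483 RPKM in wild-type embryos, 0.351 in Zmym2-/- embryos, 1.04 in control EBs, 1.27 in Zmym2-/- EBs, 1.84 in control mESCs and 1.89 in Zmym2-/- mESCs. The tables of embryos and lines were normalized separately, and no test was made across them. Among the line groups, control and Zmym2-/- libraries overlap at each stage, while the Zmym2-/- EBs (1.21 and 1.34 RPKM) lie below the control mESCs (1.45 and 2.23), a difference that was not tested. From mESCs to EBs Fthl17f differed by -0.87 in controls (adjusted p = 0.0578, 46.6% of genes called) and by -0.62 in Zmym2-/- lines (adjusted p = 0.164, 45.2% called), and neither was called in the fit without a replicate block.

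**Figure D4:**
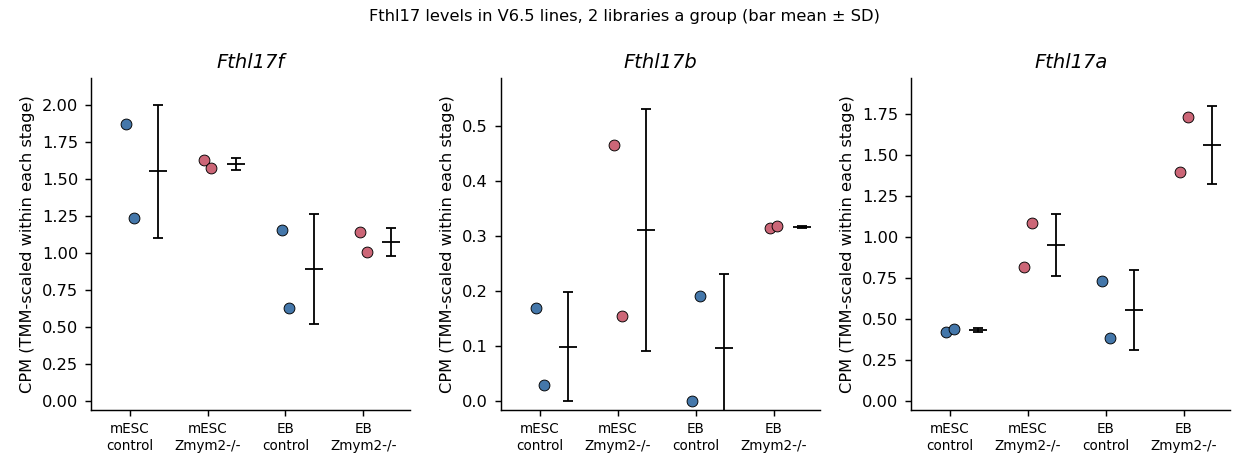
CPM of Fthl17f, Fthl17b and Fthl17a (vertical axes, different scales) in each library of the V6.5 lines as mESCs and EBs, with the mean and SD of the 2 libraries beside them and error bars cut at the lower axis. Fthl17f overlaps between genotypes at both stages, and Fthl17a is higher in both Zmym2-/- libraries than in both controls at each stage.

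Fthl17a, not called in embryos, was higher in the Zmym2-/- lines at both stages but was called in EBs alone. In mESCs it was at 0.421 and 0.439 CPM in controls and at 0.815 and 1.08 in Zmym2-/-, with a log2 difference of 1.13 (SE 0.43, adjusted p = 0.0830). In EBs it was at 0.728 and 0.381 CPM in controls and at 1.39 and 1.73 in Zmym2-/-, with a log2 difference of 1.49 (SE 0.37, adjusted p = 0.0290). Both Zmym2-/- libraries were above both controls at each stage, as held for 30.8% of all genes in mESCs and 26.2% in EBs.

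The call in EBs, where 7.39% of genes were called and 4.62% called higher, lies near the threshold. DESeq2 gave an adjusted p of 0.0725, limma on RPKM gave 0.111 (log2 difference 1.43, 1.72% of genes called), and without EB control 2 the adjusted p was 0.158 with a difference of 1.09. The difference between the stages was 0.36 (adjusted p = 0.789, 5.25% of genes called), so the response of Fthl17a was not shown to differ between mESCs and EBs. In mESCs, where 19.2% of genes were called, edgeR and DESeq2 called 0 of the 3 listed Fthl17 genes, and 1, Fthl17a, had an unadjusted p under 0.05 (edgeR).

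Fthl17b had 8 and 1 counts in control mESCs and 16 and 5 in Zmym2-/- mESCs, and 0 and 7 in control EBs against 16 and 11 in Zmym2-/- EBs. The genotypes overlap in mESCs. In EBs both Zmym2-/- libraries were above both controls in CPM, as held for 26.2% of all genes. Neither difference was called by edgeR (1.56, adjusted p = 0.266, and 1.64, adjusted p = 0.337). Its neighbour Fthl17-ps1, which shares sequence with it, had 4 and 3 counts in control EBs and 19 and 12 in Zmym2-/- EBs (adjusted p = 0.148). Reads of these copies may be split or lost between them, so single copies of the cluster cannot be told apart here. Of the unlisted copies, 6 of the 24 values in the lines were above 0.

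Markers of 2-cell-like cells, a rare state of mESC cultures, differed strongly between the genotypes of the lines. Their 6 genes summed to 0.231 to 0.384 CPM in control and 23.1 to 67.3 in Zmym2-/- mESCs, and to 0.0272 to 0.0607 and 24.1 to 54.8 in EBs, and all 6 were called higher at both stages. Fthl17f stayed within overlapping ranges in the same libraries. In embryos 0 of the 6 genes are listed. Of the trophoblast markers 2 of 13 are listed in mESCs, where they summed to 3.83 and 2.58 CPM in controls and 6.23 and 6.46 in Zmym2-/-, and 3 of 13 in EBs, where they summed to 1.52 and 1.14 against 3.18 and 2.28. Ascl2, a transcription factor of trophoblast and the one named here for its values, was called higher at both stages (0.99, adjusted p = 0.0102, and 1.21, adjusted p = 0.0250). The 8 primordial germ cell markers summed to 349 and 326 CPM in control and 521 and 446 in Zmym2-/- mESCs. In EBs they summed to 75.6 and 71.5 CPM against 98.3 and 90.4. Dppa3 among them was called higher at both stages (1.85, adjusted p = 4.14e-05, and 2.42, adjusted p = 4.63e-05). Of the 8 markers, 2 were called higher and 3 lower in mESCs (median log2 difference 0.0006, 19.2% of all genes called). In EBs 2 were called higher and 1 lower (median 0.39, 7.39% of all genes called). The 2-cell-like, trophoblast and germ cell sums were thus higher in the Zmym2-/- lines, as was Fthl17a. Other lists went the other way. The 6 pluripotent markers summed to 3784 and 3970 CPM in control and 3365 and 3196 in Zmym2-/- mESCs. In EBs their sums were 1891 and 1835 against 1822 and 1769. Erythroid markers were lower at both stages too, and yolk sac endoderm markers were lower in mESCs and overlapped in EBs. The part of any of these cells in the level of Fthl17a was not tested.

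The somatic subunits were then compared as the ferritin genes that most cells express. Fth1 was at 1212, 2109, 903, 1105, 762 and 626 CPM in wild-type embryos 1 to 6 and at 405, 587, 487, 1571, 1815 and 1373 in Zmym2-/- embryos 1 to 6. The genotypes overlap, with a log2 difference of -0.11 (SE 0.40, edgeR adjusted p = 0.940). Ftl1 was at 1910, 2534, 1431, 1539, 1143 and 1172 CPM in wild-type and at 977, 1228, 1203, 1804, 1932 and 1604 in Zmym2-/- embryos, with a log2 difference of -0.15 (SE 0.22, adjusted p = 0.812). The 2 subunits went together over the 12 embryos (r = 0.941, as a description).

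Within Zmym2-/- embryos the 3 females were above the 3 males in both subunits, and the share of all genes that did the same was not counted. The log2 difference of females against males was 1.69 for Fth1 (adjusted p = 0.0612) and 0.65 for Ftl1 (adjusted p = 0.133), where 0.0528% of genes were called by edgeR. DESeq2 called Fth1 in this contrast, among 2076 of 22729 genes that it called. In wild-type embryos Fth1 was at 903 to 2109 CPM in males and 626 to 1105 in females, which overlap. The sex by genotype difference was 2.45 for Fth1 (adjusted p = 0.0617), 1.26 for Ftl1 (adjusted p = 0.0668), 8.33 for Fthl17a (adjusted p = 0.0780) and 2.93 for Fthl17f (adjusted p = 0.376). For this difference edgeR called 0 of 22729 genes, 5067 had an unadjusted p under 0.05, and DESeq2 called 2584, among them Fthl17a, Fth1 and Ftl1. Since all male Zmym2-/- embryos carry 1 name number, sex and that number cannot be told apart. The embryos low in Fth1 within Zmym2-/- were those low in trophoblast markers, and erythroid markers spanned 24.6 to 7548 CPM over the 12 embryos. The 6 yolk sac endoderm markers summed to 3304, 5504 and 6100 CPM in the 3 Zmym2-/- females and to 1588, 2281 and 1815 in the males, apart in the same direction as Fth1. The part of any of these in these differences was not tested.

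**Figure D5:**
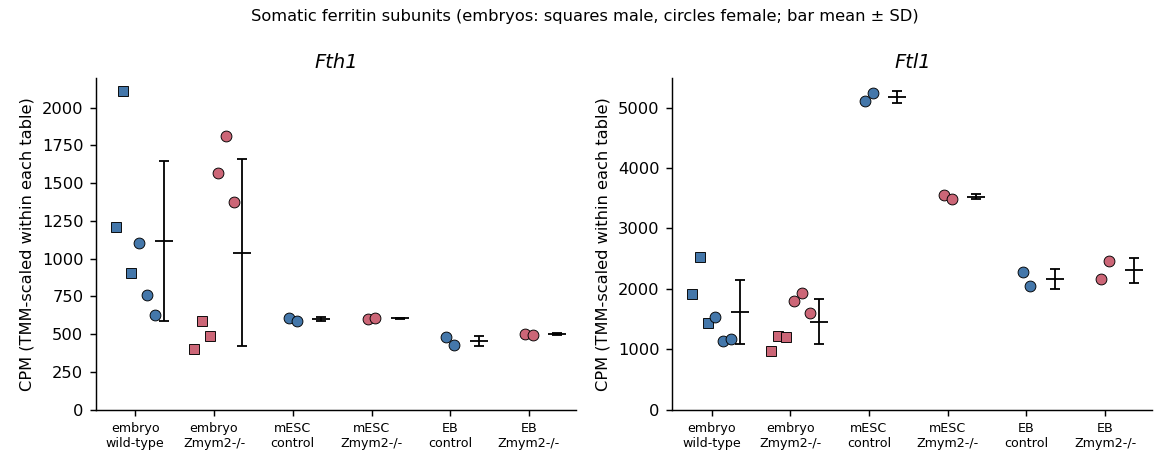
CPM of Fth1 and Ftl1 in each library (squares male and circles female embryos, circles for lines), with the mean and SD of each group beside the points. Ftl1 is at 5108 and 5240 CPM in control mESCs and 3552 and 3493 in Zmym2-/- mESCs, while the other pairs of groups overlap or differ little.

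In mESCs Ftl1, the light chain, was lower without Zmym2 and Fth1 was not. Ftl1 was at 5108 and 5240 CPM in controls and 3552 and 3493 in Zmym2-/-, both below both controls, as held for 29.2% of genes. It fell by 0.55 on the log2 scale (SE 0.06, adjusted p = 3.84e-05, 8.94% of genes called lower), and on RPKM by 0.56 (limma adjusted p = 0.0123, 10.6% of genes called). Its near copy Ftl1-ps1, which shares most of its windows, fell by 0.55 as well (adjusted p = 0.00934), so the reads of the 2 are not independent. Fth1 was at 609 and 590 CPM in controls and 602 and 606 in Zmym2-/- (log2 difference 0.01, SE 0.07, adjusted p = 0.936).

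In EBs neither subunit was called. Ftl1 was at 2276 and 2046 CPM in controls and 2160 and 2454 in Zmym2-/- (log2 difference 0.09, adjusted p = 0.434), and Fth1 at 481 and 432 against 505 and 496 (0.13, adjusted p = 0.182). The difference of Ftl1 between genotypes itself differed between the stages, by 0.65 (SE 0.09, adjusted p = 0.00204, 5.25% of genes called). From mESCs to EBs Ftl1 fell by 1.31 in controls (adjusted p = 9.96e-09) and by 0.66 in Zmym2-/- lines (adjusted p = 4.46e-06), and Fth1 fell by 0.44 (adjusted p = 5.75e-05) and by 0.32 (adjusted p = 0.000758). Between these stages 46.6% of all genes were called in controls and 45.2% in Zmym2-/- lines.

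Per length, Fth1 and Ftl1 were close in embryos, with means of 1224 and 1153 RPKM in wild-type. In control mESCs Ftl1 was at 3868 RPKM and Fth1 at 173. RPKM of Fth1 in the lines was computed over 3469 to 3470 bases, against 866 in embryos and an annotated transcript of 929. That length lowers Fth1 in the lines, so its RPKM is comparable neither between the tables nor with Ftl1 (1340 bases) within the lines. In CPM, which uses no length, Ftl1 was at 5108 and 5240 and Fth1 at 609 and 590 in control mESCs. The most abundant Fthl17 gene of control mESCs, Fthl17f, was at 1.84 RPKM there, and Fthl17a at 0.516 and Fthl17b at 0.117.

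The other genes of iron handling were taken as a list of 28. In embryos 0 of 26 tested were called by edgeR or DESeq2 and 1 had an unadjusted p under 0.05 (edgeR), with a median log2 difference of 0.01 beside 0.02 for all genes. Over all 22729 genes edgeR called 0.524% and DESeq2 372, and 2738 had an unadjusted p under 0.05 (edgeR). In mESCs 3 of 25 rose and 5 fell, with a median of 0.00 beside 0.01, and the share called stood at 8 of 25 against 19.2% of all genes. Trf, which encodes transferrin, fell by 1.32 (adjusted p = 0.000146) and Bmp6, a ligand that raises hepcidin, fell by 1.43 (adjusted p = 0.000608). Hmox1, heme oxygenase, rose by 0.46 (adjusted p = 0.00151). Slc39a8, a metal importer, fell by 1.91 (adjusted p = 0.00648).

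Tfrc, the receptor that takes up transferrin, fell by 0.39 in mESCs (adjusted p = 0.0327) and was not called in EBs (-0.19, adjusted p = 0.326) or embryos (-0.08, adjusted p = 0.903). Slc40a1, the iron exporter, Ireb2, an iron regulatory protein that binds ferritin mRNA, and Ncoa4, the receptor for ferritin breakdown, were not called in any of the 3. In EBs 1 of 25 rose, Hmox1, by 0.65 (adjusted p = 6.58e-05), and none fell, with a median of 0.05 beside 0.01 for all genes. Of all genes in EBs 7.39% were called and 4.62% called higher.

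Genes that lie within 250 kb of the cluster or of Fthl17a were compared as neighbours. Of those tested, 5 in embryos, 6 in mESCs and 5 in EBs, 0 were called by edgeR in each case, and 3, 1 and 1 had an unadjusted p under 0.05. Over all genes 2738 of 22729 in embryos, 6392 of 20159 in mESCs and 4151 of 20142 in EBs did. The neighbours tested include Fthl17-ps1 and Fthl17-ps2 in mESCs and Fthl17-ps1 in EBs, which share windows of 100 bases with the members of the cluster. The neighbour under 0.05 in EBs is Fthl17-ps1 (edgeR unadjusted p = 0.0206), so it is not an independent gene beside the cluster. In embryos Lancl3 differed most, by 2.23 (adjusted p = 0.243), and Dmd, the gene beside Fthl17a, by 0.56 (adjusted p = 0.382). Of the genes tested around the cluster in embryos, Fthl17f alone was called.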

How the data were processed

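The members and lists were chosen with earlier results of these data known. RNA was sequenced from 20 libraries (NEB stranded mRNA, paired reads of 100 nt). Trimming used Trimmomatic (0.34), alignment to mm10 used STAR (2.7.8a) and duplicates were marked by Picard (2.9.0), per the submitters' processing notes. The raw counts they deposited come from HTSeq, whose version, annotation, strand setting and treatment of reads that match several copies are not given in the sources used here. The deposited RPKM values are credited to StringTie (1.3.5). For the members listed with counts they equal the deposited counts over the library total and 1 length per gene and table, within rounding. Tests of members on RPKM thus reuse the same counts and are no second quantification. A deposited normalized score, which is the count divided by 1 factor per library, served only as a check.

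Groups, sexes and stages came from the labels, and members were matched by symbol. Raw counts were fitted in R (4.3.3) with edgeR (4.0.16), with TMM scaling, genes of at least 10 summed counts and the two-sided quasi-likelihood test. A call required an adjusted p under 0.05 (Benjamini-Hochberg, over all genes). Standard errors are the log2 difference over the square root of F. RPKM were tested with limma (3.58.1) on log2(RPKM + 0.1) for genes with a mean of at least 0.1 RPKM, a scale that understates changes of low genes. Alternatives included DESeq2 (1.42.0), and settings without the 4 embryos highest in trophoblast markers or without Zmym2-/- embryos 5 and 6 were chosen after seeing the data. Scripts were tested on simulated data. Named genes were the members, Zmym2, called iron genes (at most 4 a comparison), Tfrc, Slc40a1, Ireb2, Ncoa4 and the 10 genes most correlated with the summed family. Outside this rule, and after values were seen, the genes most like Fthl17f, the neighbours Lancl3 and Dmd, and the markers Dppa3 and Ascl2 were named, and pseudogenes were named as near copies of members. Shares without Zmym2-/- embryo 4 and the bound of Fthl17b without embryo 2 were added after seeing the data too.

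One count of the smallest library, with 32016880 counts, is 0.0312 CPM before TMM scaling, and counting intervals and floors cover counting error only. Replicates of a group correlated at 0.956 to 0.995 across genes, and 0 pairs were identical. Embryos are separate animals and lines separate clones, but the labels do not say whether mESC and EB libraries with the same number are 1 clone. Windows, coding sequence and upstream sequence came from GRCm38 (GENCODE vM21 and RefSeq, GRCm38.p6) and were compared with Biopython (1.88). Protein sequences were not used here.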

Additional observations from a re-analysis of the deposited data

Results flagged for a closer look

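Of 10 groups of members with 6 embryos each, 3 held an embryo far from the others by Dixon's test, which chance gives in about 1 of 20 groups. Fthl17a in Zmym2-/- embryo 4 was at 13.1 CPM, far above the other 5 of its genotype. Fthl17d in the same embryo was at 0.028 RPKM where the other 5 were at 0. Fthl17f in wild-type embryo 2 was at 0.0275 CPM, which is 1 count, where the other 5 were at 0. In the latter 2 a single value above 0 among zeros meets the criterion whatever its size, so the rate of 1 of 20 does not apply to them.

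The genotype difference of Ftl1 was 0.65 higher on the log2 scale in EBs than in mESCs by the test of that difference (edgeR adjusted p = 0.00204, 5.25% of genes called). Its near copy Ftl1-ps1 differed between the stages too, by 0.63 (adjusted p = 0.0398), and shares most windows of 100 bases with it.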

How the results depend on the processing

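Of 44 counts of called Fthl17 members under other settings than leaving out 1 library, 35 stayed within 1.5 times the reported count, and of 176 values of single members 150 kept their direction and side of the threshold, 11 reversed, 7 lost and 8 gained a call. In embryos the count of 1 called member became 0 with filterByExpr, which removes Fthl17f as low, with the name number as a block (shared numbers only), in females only, in the H series only and in the J series only, and within males the 1 called member is Fthl17a. In EBs it went from 1 to 0 with DESeq2. It went from 0 to 1 with DESeq2 for female against male Zmym2-/- embryos and for the sex by genotype difference, and in control EBs against mESCs with the replicate block. Leaving out 1 library moved it over 0 to 1 for the last 2: Fthl17f was called in control EBs against mESCs without mESC control 2 (-1.13) or EB control 1 (-1.39), and Fthl17a for sex by genotype without wild-type embryo 3 (8.82) or 4 (10.5). Without either embryo Fth1 and Ftl1 were called for sex by genotype too, and Fth1 also without Zmym2-/- embryo 4 (adjusted p 0.0166 to 0.0484). Fth1 was called for female against male Zmym2-/- embryos without wild-type embryo 2 or 3 or Zmym2-/- embryo 4 (adjusted p 0.0270 to 0.0472). The cause was not tested.

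In embryos Fthl17a reversed to 1.75 in females and 0.088 in the H series. Fth1 reversed to 0.14 with the series as a covariate, 0.30 with the name number as a block, 0.92 in females, 0.39 in the H series and 0.27 without the 4 embryos highest in trophoblast markers. Ftl1 reversed to 0.0067, 0.46, 0.071 and 0.14 under the same settings but the block. None of these values was called. Leaving out 1 library gave -0.34 to 0.18 for Fth1 and -0.25 to 0.030 for Ftl1 in embryos, -0.22 to 0.38 for Fthl17f and -0.011 to 0.034 for Fth1 in mESCs, and -0.10 to 0.78 for Fthl17f and -0.00027 to 0.18 for Ftl1 in EBs. It gave -0.044 to 0.90 for Fthl17a and -0.13 to 0.76 for Fthl17f between stages, and -0.24 to 0.71 for Fthl17a in control EBs against mESCs.

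Fthl17f in embryos was past the threshold under 20 of 25 alternatives (adjusted p 1.77e-06 to 0.34, log2 difference 4.33 to 7.16). The replicate block gave it 5.50 (adjusted p = 0.0423) and Fthl17f in control EBs against mESCs -0.87 (adjusted p = 0.0243), and it changed no other call of a member. Same-numbered embryos of both genotypes had deviations that correlated at -0.45 to 0.41, those of the lines at -0.046 and -0.038 between genotypes and at 0.15 (control) and 0.37 (Zmym2-/-) between mESCs and EBs. With 2 pairs and no label that ties them, the stages were not treated as paired. Leaving out EB control 2 brought Fthl17b in EBs to 6.66 (adjusted p = 0.0392), leaving out EB control 1 brought Fth1 in EBs to 0.21 (adjusted p = 0.0362), and Ftl1 on RPKM in mESCs was not called without any 1 library (adjusted p 0.111 to 0.222). Depth limits Fthl17b to Fthl17f in embryos, where 1 count is at most 0.0312 CPM before TMM scaling.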
